A study of Mus musculus with 12 samples.

Results

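The comparison described here is GN_captopril against GN_water: kidney cortex from mice with glomerulonephritis (GN) given captopril against kidney cortex from mice with GN given water. Its members are the 3 libraries labelled GN and captopril and the 3 labelled GN and water, 6 of the 12 libraries of the series, chosen by their labels and by the matching columns of the count table. All 12 libraries came from adult C57BL/6 mice labelled male. GN was induced in both groups with intraperitoneal horse spleen apoferritin, a foreign protein, at 10 mg a dose 5 times a week, together with 100 micrograms of lipopolysaccharide as adjuvant 3 times a week, for 6 weeks, and kidneys were taken at week 9. The 6 remaining libraries were controls injected with saline on that schedule, 3 given water (Control_water) and 3 given captopril (Control_captopril). No label gives captopril's dose, route or duration, or the hour of kidney collection. Each title carries a pair of numbers, but no label tells if that means pooled mice, so the spread between libraries may be partly technical.

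Captopril inhibits angiotensin-converting enzyme, which makes angiotensin II from the angiotensin I that renin releases. Angiotensin II constricts vessels, drives aldosterone release and sodium uptake, and feeds back on renin, so that renin transcript in the juxtaglomerular cells rises when the converting enzyme is blocked. In the apoferritin model immune complexes lodge in the glomerulus, and leukocytes, injured tubule cells and matrix-producing stromal cells follow in the interstitium. By its title the series asks about interstitial injury in chronic GN when the enzyme is inhibited, which is the question of the comparison.

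Library totals were 15574379, 18655038 and 14173432 counts in GN_captopril and 20355212, 22622272 and 18681671 counts in GN_water, against 16491312 to 22842783 counts in the controls. Transcripts of proximal tubule genes were abundant in every library, at a summed 33540 to 37470 CPM (counts per 1000000 counts of the TMM-scaled library) in GN_captopril and 24130 to 26060 CPM in GN_water, as the label kidney cortex implies. The sex-linked transcripts went against the labels. Xist, the RNA of the inactive X chromosome, stood at 209, 212 and 181 CPM in the libraries labelled GN_water and at 375, 314 and 345 CPM in those labelled Control_captopril, and at most at 0.182 CPM in any library labelled Control_water or GN_captopril. Ddx3y, an RNA helicase gene on the Y chromosome, showed the reverse, with 49.9, 46.9 and 47 CPM in GN_captopril and no count in any GN_water library. Every library labelled male in GN_water and Control_captopril thus carried Xist and almost no Y-linked transcript. Transcripts of adrenal cortex genes summed to 73.5, 109 and 199.5 CPM in the 3 GN_captopril libraries and to 55.6, 55.1 and 58.5 CPM in GN_water, with the highest sum of all 12, 422 CPM, in Control_captopril replicate 3. Control_water summed to 73.37, 81.01 and 73.75 CPM, so GN_captopril replicate 1 lay within the range of that group. Whether group labels were exchanged, or the mice differed in sex, was not tested; group names below are those of the labels, and an exchange of the GN labels would turn the direction of every change given. Because the sex-linked transcripts move with the comparison, every gene was also measured between the control libraries in the same marker order, Control_water (with Y-linked transcripts) minus Control_captopril (with Xist).

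**Figure D1:**
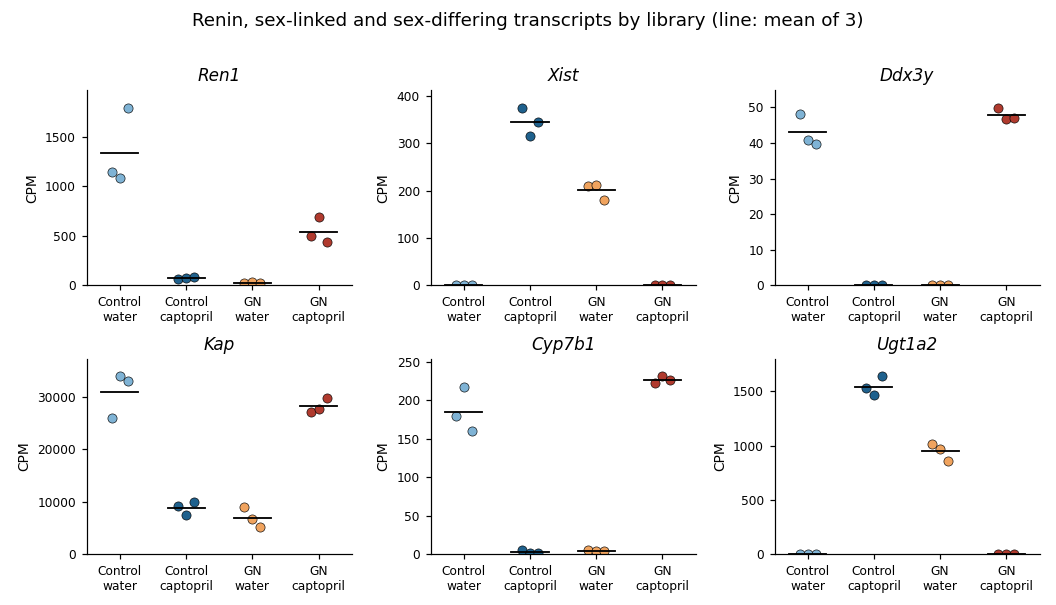
Points are the CPM of single libraries in the 4 labelled groups on linear axes from 0, and lines are means of 3. Ren1, Ddx3y, Kap and Cyp7b1 are high in Control_water and GN_captopril, and Xist and Ugt1a2 are high in Control_captopril and GN_water.

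Of 14618 genes tested, 2869 rose in GN_captopril against GN_water (19.6%) and 3725 fell (25.5%) at an adjusted p under 0.05 (edgeR quasi-likelihood test, Benjamini-Hochberg over all genes). The balance of the directions depended on the libraries fitted: the 6 GN libraries alone gave 3398 higher and 3047 lower, and the fits without GN_water replicate 1, 2 or 3 gave 3076 and 2742, 2900 and 2540, and 2994 and 2680. At least 2-fold changes numbered 371 higher and 660 lower. In 3576 genes (24.5%) all 3 GN_captopril libraries lay above all 3 GN_water libraries, and in 4628 (31.7%) all 3 lay below. Between the controls, 2484 genes were higher in Control_water than in Control_captopril (17%) and 2247 were lower (15.4%). The 2 sets of log2 fold changes share no library, and over the 14618 genes their Pearson r was 0.678, with 72.9% of genes having the same sign. Genes are not independent replicates, and r is given as a description.

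Called genes were then sorted by the difference of the 2 contrasts, (GN_captopril minus GN_water) minus (Control_water minus Control_captopril), tested in the same fit. This difference was called higher for 464 genes (3.17%) and lower for 488 (3.34%). A gene called between the GN groups is said to have changed beyond the controls when this difference was also called with the same sign, which held for 358 of the 2869 that rose and 356 of the 3725 that fell. It is set apart when the difference was not so called and the control libraries were called in the same direction, which held for 1553 that rose and 1517 that fell. The other 958 higher and 1852 lower genes are undecided: called in GN, not called between controls, and not shown to differ from the control difference. In label terms the difference is captopril minus water in GN plus captopril minus water in controls. A gene beyond the controls thus need not have a change particular to GN. Of that class, 51 that rose and 64 that fell were called between the control groups with the sign reversed. By the labels these moved the same way with captopril in both arms. Read by the labels as written, with captopril against water in both arms, the change with captopril in GN differed from that in controls (an interaction) for 3444 genes in the higher direction (23.6%) and 3962 in the lower (27.1%).

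**Figure D2:**
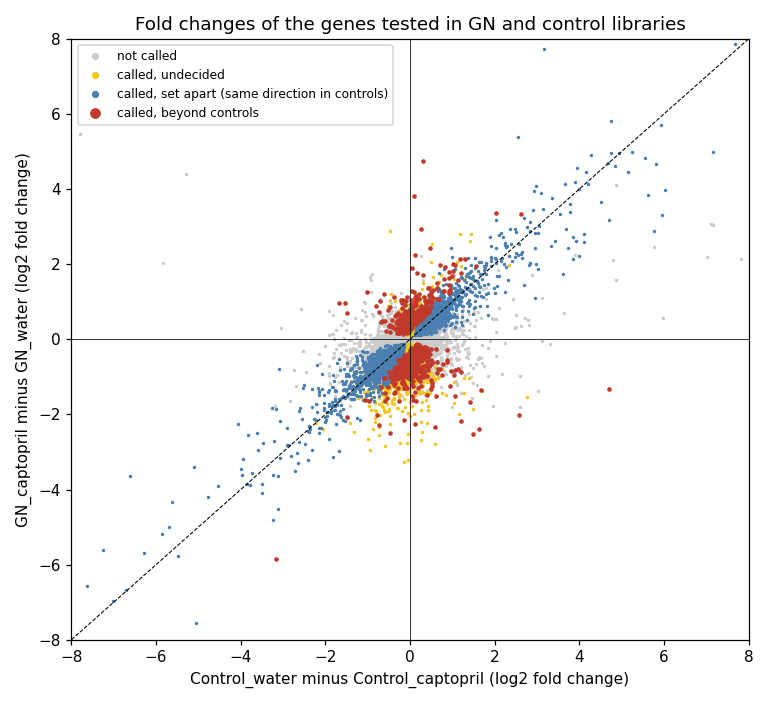
Each point is 1 of the genes tested, with its log2 fold change between controls on the horizontal axis and between GN groups on the vertical axis; the dashed line marks equal values, and 27 genes beyond 8 log2 units on either axis are not drawn. Genes set apart follow the line, and genes beyond the controls lie off it.

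Renin itself is a gene set apart. Ren1 (chr1:133350674-133360320, GRCm38.p6), which encodes the protease that starts the angiotensin cascade, read 499, 691 and 438 CPM in the GN_captopril libraries and 23.3, 30.2 and 20.8 CPM in the GN_water libraries. The groups did not overlap, and Ren1 was 21.9 times higher (log2 fold change 4.45 ± 0.24, SE, adjusted p = 1.46e-08). The libraries labelled Control_water read 1142, 1083 and 1794 CPM and those labelled Control_captopril 63.4, 78.2 and 82.8 CPM. Ren1 was thus lower in the library group labelled captopril among the controls (log2 4.16 for Control_water minus Control_captopril) and higher in the one labelled captopril among the GN mice, and the difference of the 2 contrasts was 0.29 ± 0.30 (adjusted p = 0.598). Ren1 levels therefore followed the sex-linked markers across the 4 groups and the drug label within GN only, and which of these the difference belongs to cannot be told apart by this contrast.

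Among the renin-angiotensin list, 7 of 13 genes tested rose and 3 fell, against 19.6% and 25.5% of all genes tested. Ace, the converting enzyme that captopril blocks, read 295, 350.1 and 311 CPM in GN_captopril and 256, 200.1 and 214 CPM in GN_water (log2 0.51 ± 0.10, adjusted p = 0.00128). It was as far apart between the controls (log2 0.62) and is set apart. Agt, which encodes angiotensinogen, was the single list member beyond the controls, at 67, 67.1 and 70.5 CPM against 112, 91.5 and 111 CPM, a fall of 0.62 ± 0.10 on the log2 scale (difference -0.52 ± 0.14, adjusted p = 0.0388); 8 of 12 fits that each leave out 1 library did not call this difference (adjusted p up to 0.121, without GN_water replicate 3). Enpep, the aminopeptidase that degrades angiotensin II, rose by log2 0.42 ± 0.08 and was undecided, with 167 ± 16.5 CPM in Control_water and 155 ± 9.05 CPM in Control_captopril (mean ± SD, n = 3). Agtr1a, the main angiotensin II receptor, rose slightly, at 61.1, 62.7 and 56.8 CPM against 54.2, 53.6 and 51.8 CPM (log2 0.18 ± 0.06, adjusted p = 0.0266), and the call was lost in 2 of 12 fits without 1 library (adjusted p up to 0.103, without GN_captopril replicate 2). Leaving out GN_captopril replicate 2 reduced the list's 7 higher genes to 4. The converting enzyme also degrades kinins. Of 7 kallikrein-kinin genes 4 fell, against 25.5% of all genes tested, and all 4 were set apart. Klk1, tissue kallikrein, read 1709, 1576 and 1694 CPM against 2873, 3106 and 2773 CPM in GN, with 1871 ± 80.2 CPM in Control_water and 3667 ± 288 CPM in Control_captopril. The low group was the one with Y-linked transcripts in both arms, the reverse of Ren1 and Ace.

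Aldosterone-responsive and sodium transport genes fell in 9 of 15 cases and rose in none, against 25.5% and 19.6% of all genes tested. The difference of the 2 contrasts was called lower for 2 genes of the list and higher for 2. Sgk1, the kinase that keeps the epithelial sodium channel at the membrane, fell beyond the controls, from 165, 119 and 152 CPM in GN_water to 34.9, 35.4 and 37.7 CPM in GN_captopril (log2 -2.02 ± 0.16, adjusted p = 7.93e-07, difference -1.23 ± 0.23, adjusted p = 0.00757). Its control libraries lay between, at 48.5, 66.8 and 45.5 CPM and 86.9, 78.3 and 112 CPM in Control_water and Control_captopril. The channel subunits Scnn1a and Scnn1b and the potassium channel Kcnj1 fell by 0.51, 0.60 and 0.86 on the log2 scale and are set apart, with control differences of -0.39, -0.34 and -0.90. Slc12a1, the cotransporter of the thick ascending limb, read 809, 715 and 856 CPM against 1099, 912 and 1288 CPM (adjusted p = 0.0153), and 3 of 12 fits that each leave out 1 library did not call it (adjusted p up to 0.128, without GN_water replicate 3).

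The 10 largest fitted changes of the comparison were all set apart, and among them are genes known to differ between male and female mouse kidney. Besides Ddx3y, the Y-linked Uty, Kdm5d and Eif2s3y, which encode a histone demethylase family member, a histone demethylase and a translation factor subunit, were present in every GN_captopril library, Uty at 29, 28.7 and 28.7 CPM, Kdm5d at 14.6, 16.5 and 13.8 CPM and Eif2s3y at 35.7, 31.5 and 38.3 CPM. Ddx3y was at least 316-fold and Uty at least 194-fold higher in GN_captopril, taking the lowest GN_captopril library against 3 counts in a GN_water library. Mpped1, a metallophosphoesterase domain gene, was also without a count in GN_water, at 5.91, 8.5 and 6.1 CPM in GN_captopril and 5.87, 6.19 and 7.87 CPM in Control_water, and at 0 in Control_captopril. Slco1a1, an organic anion transporter of the male proximal tubule, read 245, 523 and 291 CPM against 0, 0.123 and 0.0494 CPM, with 184, 207 and 306 CPM in Control_water and no count in Control_captopril. In both arms the level split between groups with Y-linked transcripts and groups with Xist.

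Of 16 androgen-induced kidney genes, 14 rose and 2 fell, against 19.6% and 25.5% of all genes tested. Set apart were 12 of the rises and 2 of the falls. Kap, the kidney androgen-regulated protein, read 27150, 27730 and 29780 CPM in GN_captopril against 8917, 6619 and 5206 CPM in GN_water (log2 2.03 ± 0.17, control difference 1.80). Slc7a13, a cystine and aspartate transporter of the late proximal tubule, read 844, 855 and 881 CPM against 2.57, 1.81 and 3.26 CPM, and Acsm3, a medium-chain acyl-CoA synthetase, 1417, 1682 and 1413 CPM against 7.61, 7.44 and 4.15 CPM. Neither pair of groups overlapped. Of 6 female-biased genes 5 fell, all set apart: Slc7a12 read 15.7, 7.9 and 25.9 CPM against 297, 258 and 329.9 CPM and Prlr, the prolactin receptor, 14.1, 11.8 and 31.1 CPM against 285, 266 and 295 CPM. The 6 lower genes with the largest changes in this class were Xist, Ugt1a2, Atp13a4, Igf2, Hdc and Myh1. Ugt1a2, a glucuronidation enzyme whose exons are partly shared with the other Ugt1a genes, read 1.06, 0.439 and 2.51 CPM against 1012, 967 and 859.7 CPM, and Hdc, which makes histamine, 0.731, 0.603 and 1 CPM against 78.3, 63.1 and 76.7 CPM.

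Drug-handling genes followed the same split. In the cytochrome P450 list 15 of 31 rose and 11 fell, of which 12 and 9 were set apart. Of all genes tested 19.6% rose and 25.5% fell. Cyp7b1, an oxysterol hydroxylase, read 223, 231 and 226 CPM against 4.63, 3.99 and 4.35 CPM in GN (log2 5.71 ± 0.23) and differed by 5.92 between controls. Among organic ion transporters 16 of 31 rose and 10 fell, 12 and 10 of them set apart. Neighbouring paralogs on chromosome 19 moved in opposite directions, with Slc22a30 at log2 4.14 ± 0.13 and Slc22a29 at -3.87 ± 0.17. Reads of such paralogs can be divided between them, so their single values are uncertain. Slc22a22, a prostaglandin transporter, was beyond the controls, at 129, 132 and 132 CPM against 35.7, 32.1 and 33.9 CPM, with a difference of 0.40 ± 0.08 (adjusted p = 0.0134).

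Promoters of the androgen-induced genes were read for the 6 bases of the androgen receptor half-site, tgttct, on both strands, in the window from 250 bases before to 50 after the annotated start (RefSeq, GRCm38.p6). It was in 3 of 12 (25%) of the list's promoters and in 5750 of 27025 (21.3%) of all promoters of that length. Among promoters of genes tested it was in 1723 of 11079 (15.6%). The pair with the smallest adjusted p among called genes that carry it is shown, with the match in capitals:
Cyp4b1: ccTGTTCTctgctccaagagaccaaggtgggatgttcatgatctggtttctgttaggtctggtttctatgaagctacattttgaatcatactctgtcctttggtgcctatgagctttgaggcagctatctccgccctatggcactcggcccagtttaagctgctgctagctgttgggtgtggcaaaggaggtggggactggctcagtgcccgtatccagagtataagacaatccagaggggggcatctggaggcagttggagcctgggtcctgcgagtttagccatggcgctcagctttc
Adh1: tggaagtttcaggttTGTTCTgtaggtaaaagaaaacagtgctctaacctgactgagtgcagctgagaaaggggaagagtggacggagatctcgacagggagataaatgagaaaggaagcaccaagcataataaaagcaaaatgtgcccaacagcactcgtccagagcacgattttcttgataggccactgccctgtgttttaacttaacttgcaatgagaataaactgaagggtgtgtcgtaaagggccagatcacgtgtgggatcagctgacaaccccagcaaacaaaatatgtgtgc
Cyp4b1 (chr4:115647672-115647971, minus strand), a fatty acid hydroxylase, read 4868, 5194 and 4285 CPM against 407, 360.4 and 297 CPM. A match describes these letters only.

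Markers of tubule injury were lower in the libraries labelled GN_captopril, and several were so beyond the controls. Of 24 genes, 18 fell and 1 rose (median log2 -0.71), against 25.5% and 19.6% of all genes tested (median log2 -0.05). Beyond the controls were 6 that fell and the 1 that rose. In bulk tissue fewer cells of a type and less RNA per cell cannot be told apart, here and below. Lcn2 (chr2:32384637-32387739, GRCm38.p6), the iron-binding lipocalin NGAL released by damaged tubules, read 4.92, 3.84 and 9.9 CPM in GN_captopril and 22.8, 25.2 and 34.4 CPM in GN_water. All GN_captopril libraries were below all GN_water libraries (log2 -2.17 ± 0.26, adjusted p = 2.62e-05). In the marker order the controls ran the opposite way, with 3.86, 4.67 and 5.29 CPM in Control_water and 2.29, 1.7 and 1.97 CPM in Control_captopril. The difference was therefore larger, at -3.36 ± 0.42 (adjusted p = 0.00104). By the labels, Lcn2 was lower in the captopril group of both arms.

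Havcr1 (chr11:46739822-46779578, GRCm38.p6), which encodes the kidney injury molecule KIM-1 of the damaged proximal tubule, read 8.1, 6.31 and 9.4 CPM against 25.1, 21.4 and 27.1 CPM (log2 -1.64 ± 0.28, adjusted p = 0.000414). Its controls were low in both groups, at 2.74 ± 0.521 and 2.46 ± 1.76 CPM (mean ± SD, n = 3, Control_water and Control_captopril). The difference was -1.77 ± 0.46 (adjusted p = 0.0415), and 9 of 12 fits that each leave out 1 library did not call this difference (adjusted p up to 0.109, without Control_water replicate 2). Spp1, osteopontin, read 972, 746 and 946 CPM against 3868, 3595 and 3659 CPM and was apart between controls too, at 847, 880.4 and 882 CPM and 2289, 2636 and 2456 CPM. The remainder of its fall, -0.56 ± 0.12 on the log2 scale (adjusted p = 0.0178), was beyond the controls, and leaving out 1 library at a time ended the call of the difference in 2 of 12 fits (adjusted p up to 0.0598, without GN_water replicate 1). Sprr1a, a cornified envelope protein of stressed epithelium, and Psca, a surface antigen, were also among the 10 largest falls beyond the controls. Sprr1a read 1.66, 1.04 and 1.72 CPM against 8.06, 5.26 and 8.75 CPM. Psca read 1.06, 0.494 and 0.861 CPM against 2.84, 1.32 and 5.63 CPM. For Psca the call was lost in 2 of 12 fits without 1 library (adjusted p up to 0.0824, without GN_water replicate 3). Its difference was not called in 1 of 12 such fits (adjusted p up to 0.0501, without Control_water replicate 2). Cdkn1a, the cell cycle inhibitor p21, fell by 1.62 on the log2 scale but is set apart (control difference -1.11). Igfbp7, a secreted marker of stressed tubules, fell by 0.56 with a difference of -0.29 ± 0.08 (adjusted p = 0.0487), and leaving out 1 library at a time ended the call of the difference in 11 of 12 fits (adjusted p up to 0.181, without GN_water replicate 3). Without GN_water replicate 1 the difference was called lower for 2 injury genes, against 6 with all libraries.

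**Figure D3:**
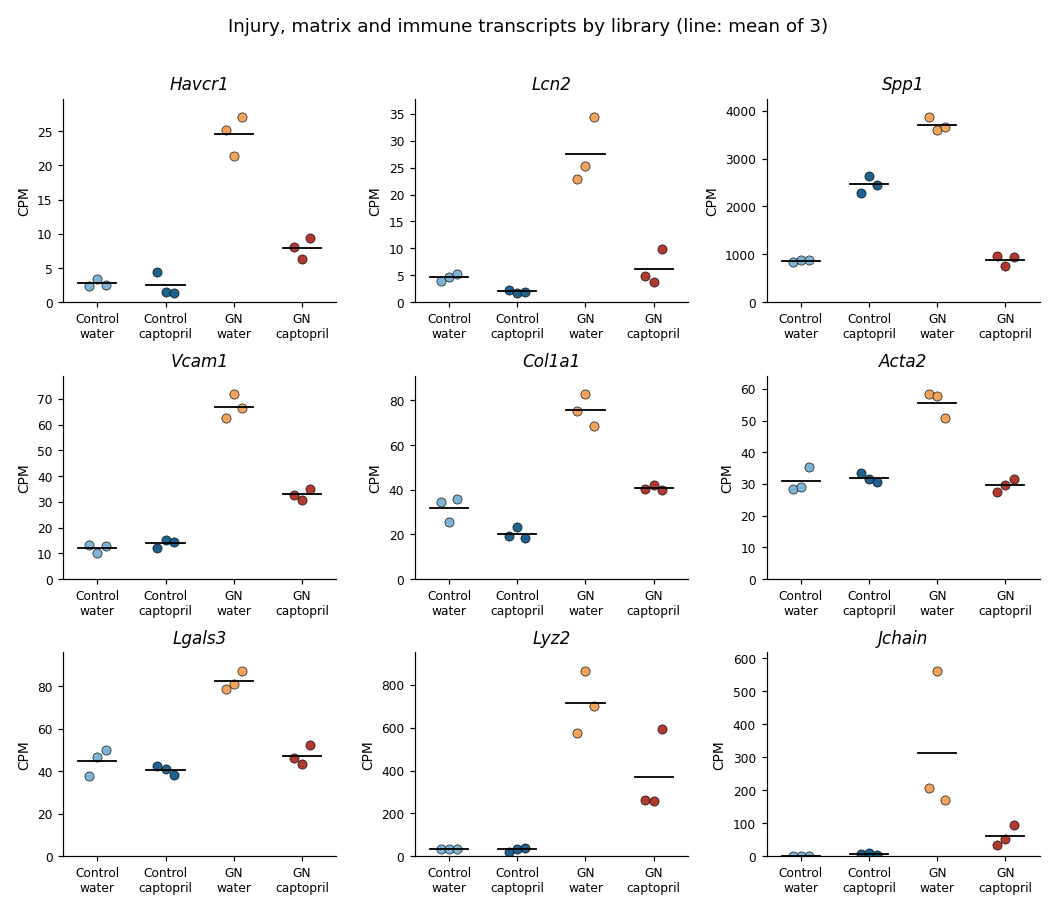
Points are the CPM of single libraries in the 4 labelled groups on linear axes from 0, and lines are means of 3. In GN_captopril Havcr1, Lcn2, Vcam1, Col1a1, Acta2 and Lgals3 lie below every GN_water library, while Lyz2 in GN_captopril replicate 3 lies within the GN_water range.

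Matrix genes fell together. Of 40 genes of matrix and fibrosis, 33 fell and 1 rose (median log2 -0.70), against 25.5% and 19.6% of all genes tested. Of those that fell 12 were beyond the controls, among them the fibrillar collagens Col1a1, Col1a2 and Col3a1. Col1a1, the main chain of type I collagen, read 40.4, 42.1 and 39.8 CPM in GN_captopril and 75.4, 82.8 and 68.4 CPM in GN_water, with no overlap (log2 -0.89 ± 0.12, adjusted p = 5.02e-05). In the marker order the controls ran the other way, with 31.9 ± 5.59 CPM in Control_water and 20.3 ± 2.76 CPM in Control_captopril. The difference was -1.54 ± 0.17 (adjusted p = 0.000533). By the labels, Col1a1 was lower in the captopril group of both arms. Col6a2, of the microfibrillar collagen VI, read 25.4, 27.1 and 37.1 CPM against 59.8, 58.6 and 56.6 CPM, and Sparc, a collagen-binding glycoprotein, 231, 212 and 239 CPM against 390.1, 442 and 373 CPM. Both stood at like levels in the 2 control groups, and their differences were -1.04 ± 0.17 and -0.80 ± 0.14 (adjusted p = 0.00428 and 0.00528). Bgn, the proteoglycan biglycan, fell by 0.85 (difference -0.56 ± 0.15, adjusted p = 0.0421), and the difference was not called in 8 of 12 fits without 1 library (adjusted p up to 0.106, without GN_water replicate 2). Loxl4, a collagen cross-linking oxidase, was among the 10 largest falls beyond the controls, at 6.24, 4.88 and 5.09 CPM against 29.3, 22.4 and 26.9 CPM (log2 -2.28 ± 0.19). Fn1, fibronectin, read 33.7, 43.5 and 62.4 CPM against 74.5, 112 and 74.7 CPM (log2 -0.91 ± 0.20, adjusted p = 0.00249) and was undecided. Among 16 matrix proteases and inhibitors 11 fell and 1 rose; Timp3, an inhibitor of metalloproteinases, rose by 0.61 ± 0.08 and is set apart.

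Contractile stromal genes fell in 10 of 15 cases, against 25.5% of all genes tested, and 5 of these falls were beyond the controls. Acta2, the smooth muscle actin of vessels and myofibroblasts, read 27.4, 29.7 and 31.7 CPM in GN_captopril and 58.4, 57.6 and 50.9 CPM in GN_water (log2 -0.91 ± 0.09, adjusted p = 3.73e-06). The GN_captopril libraries were at the level of the controls, which stood at 31.1 ± 3.82 and 32 ± 1.49 CPM (difference -0.87 ± 0.13, adjusted p = 0.00229). Rgs5, a G-protein regulator of pericytes, fell from 66, 70.3 and 69.1 to 37.9, 45.3 and 42.7 CPM (difference -0.66 ± 0.12, adjusted p = 0.00847). Tagln, an actin-binding protein of smooth muscle, fell by 0.89 (difference -0.58 ± 0.15, adjusted p = 0.0364), and 9 of 12 fits that each leave out 1 library did not call this difference (adjusted p up to 0.1, without GN_water replicate 1). Without GN_water replicate 1 the difference was called lower for 3 genes of the list, against 5 with all libraries.

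Macrophage, complement and B cell transcripts were lower in the libraries labelled GN_captopril, and most of those that fell were undecided. In the macrophage and monocyte list 18 of 24 fell and none rose (median log2 -0.89), against 25.5% and 19.6% of all genes tested. Of the falls 2 were beyond the controls, 1 set apart and 15 undecided. The 2 beyond the controls are a share like the 9.56% of all falls and so no result about the list. Lgals3, galectin-3, read 46.3, 43.2 and 52.4 CPM against 78.8, 81.2 and 87.2 CPM, with 44.7 ± 6.34 and 40.5 ± 2.13 CPM in Control_water and Control_captopril (difference -0.94 ± 0.14, adjusted p = 0.00237). Cx3cr1, the fractalkine receptor of resident macrophages, read 18.5, 17.8 and 21.6 CPM against 31.1, 33.8 and 31.4 CPM (difference -0.84 ± 0.14, adjusted p = 0.00453). Lyz2, lysozyme, read 263, 257 and 596 CPM against 578, 866 and 701 CPM, and the groups overlapped through GN_captopril replicate 3 (log2 -0.94 ± 0.28, adjusted p = 0.0159), and 3 of 12 fits that each leave out 1 library did not call it (adjusted p up to 0.0793, without GN_water replicate 2). All 6 libraries were far above the controls, at 32.6 ± 1.2 and 30.9 ± 9.38 CPM.

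The summed macrophage list read 671, 678 and 1259 CPM in GN_captopril and 1295, 1883 and 1490 CPM in GN_water, and replicate 3 was the highest GN_captopril library. That library also held the most adrenal transcript of its group. Without it 22 of the 24 macrophage genes fell and the difference was called lower for 12 instead of 2; without GN_water replicate 2, 10 fell. Complement genes, which opsonise immune complexes, fell in 15 of 22 cases and rose in 2, against 25.5% and 19.6% of all genes tested. Cfi, the protease that inactivates C3b, fell beyond the controls, at 11, 8.5 and 10.3 CPM against 23.9, 20.4 and 22.6 CPM (difference -0.97 ± 0.17, adjusted p = 0.00588), as did the C1 inhibitor Serping1 at 80.04, 103 and 127 CPM against 195, 190.3 and 172 CPM, for which the difference was not called in 6 of 12 fits without 1 library (adjusted p up to 0.0807, without GN_water replicate 1). Cfb, of the alternative pathway, rose by 0.69 ± 0.06 and is set apart. C3, the central component, read 90.4, 124 and 479 CPM against 402, 585 and 305 CPM and did not pass (log2 -0.90 ± 0.46, adjusted p = 0.123); without GN_captopril replicate 3 it was -2.01 (adjusted p = 3.44e-05). Without that library 10 complement genes instead of 3 were lower in the difference. Of 7 Fc receptor genes, which bind the immunoglobulin of immune complexes, 4 fell and all 4 were undecided.

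B and plasma cell genes had the lowest median of the immune lists, -2.47 on the log2 scale, with 7 of 9 lower and all 7 undecided. Jchain, the joining chain of secreted IgA and IgM, read 33.1, 52.1 and 93.3 CPM in GN_captopril and 205, 562 and 170.1 CPM in GN_water (log2 -2.40 ± 0.43, adjusted p = 0.000602). Cd79a, of the B cell receptor, read 2.52, 1.98 and 2.3 CPM against 6.83, 30.5 and 8.2 CPM. In both genes GN_water replicate 2 was far above the other GN_water libraries, yet no GN_captopril library reached the lowest of them. Without that library Cd79a was -1.69 (adjusted p = 0.000724) and Jchain -1.62 (adjusted p = 0.00158). T and natural killer cell genes fell in 7 of 22 cases, all undecided, with 4 without GN_water replicate 2, a share near the 25.5% of all genes that fell and so no result about the list. Cd4, the helper T cell co-receptor, which macrophages can carry too, read 3.59, 4.99 and 5.24 CPM against 8.29, 12.5 and 11.9 CPM (log2 -1.24 ± 0.25).

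Chemokines and cytokines fell in 11 of 30 cases and rose in 1, against 25.5% and 19.6% of all genes tested. Of the falls 1 was beyond the controls, a share like the 9.56% of all falls and so no result about the list. Ltb, lymphotoxin beta, was the sole member beyond the controls, at 1.86, 1.54 and 2.8 CPM against 4.49, 6.13 and 3.81 CPM (difference -1.51 ± 0.40, adjusted p = 0.0415), and 8 of 12 fits that each leave out 1 library did not call this difference (adjusted p up to 0.0925, without Control_water replicate 3). Ccl2, the main monocyte attractant, read 4.45, 3.84 and 4.66 CPM against 7.15, 7.52 and 5.68 CPM without overlap, at log2 -0.66 ± 0.28 and an adjusted p of 0.0713. In a fit of the 6 GN libraries alone its adjusted p was 0.0119. Single control libraries mattered too: the adjusted p was 0.0483 without Control_water replicate 2, 0.0371 without Control_captopril replicate 1 and 0.0382 without Control_captopril replicate 2. Ccl2 was not called in the main fit of all 12 libraries or in most of the alternative fits. Without GN_captopril replicate 3 the list's count of lower genes was 17. Il34, a ligand of the CSF1 receptor, rose by 1.23 ± 0.14 and is set apart (control difference 1.85).

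Adhesion molecules and targets of the inflammatory transcription factor NF-kappaB fell in 18 of 23 cases and none rose. Of all genes tested 25.5% fell and 19.6% rose. Of the 18 falls 2 were beyond the controls, a share like the 9.56% of all falls and so no result about the list. Vcam1 (chr3:116110020-116129688, GRCm38.p6), the endothelial and tubular ligand of leukocyte integrins, read 32.8, 30.7 and 35.2 CPM in GN_captopril and 62.7, 71.9 and 66.4 CPM in GN_water, a fall of 1.03 ± 0.10 (adjusted p = 2.92e-06). Both GN groups were above the controls, at 12.1 ± 1.56 and 13.9 ± 1.75 CPM, and the difference was -0.83 ± 0.15 (adjusted p = 0.00658). Birc3, an apoptosis inhibitor, fell by 0.56 (difference -0.47 ± 0.12, adjusted p = 0.0361), and leaving out 1 library at a time ended the call of the difference in 10 of 12 fits (adjusted p up to 0.122, without GN_water replicate 2); with DESeq2 the adjusted p of the difference was 0.0552. The remaining falls were set apart in 4 genes and undecided in 12.

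A match to an NF-kappaB-like motif, ggnnnttcc on either strand, was in 19 of 36 (52.8%) of promoters of this list and the chemokine list together, and in 5584 of 27025 (20.7%) of all promoters. It was in 12 of 21 (57.1%) of the lists' called genes and in 2764 of 11079 (24.9%) of genes tested. The pair with the smallest adjusted p among called genes is shown, with matches in capitals; in Nfkb2, the precursor of p52, matches on opposite strands overlap:
Tnfaip2: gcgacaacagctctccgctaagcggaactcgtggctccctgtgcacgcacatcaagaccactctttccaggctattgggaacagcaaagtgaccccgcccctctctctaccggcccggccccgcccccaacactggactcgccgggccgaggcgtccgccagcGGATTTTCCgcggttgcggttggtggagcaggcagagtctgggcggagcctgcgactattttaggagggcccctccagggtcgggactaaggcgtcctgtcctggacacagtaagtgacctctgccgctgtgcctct
Nfkb2: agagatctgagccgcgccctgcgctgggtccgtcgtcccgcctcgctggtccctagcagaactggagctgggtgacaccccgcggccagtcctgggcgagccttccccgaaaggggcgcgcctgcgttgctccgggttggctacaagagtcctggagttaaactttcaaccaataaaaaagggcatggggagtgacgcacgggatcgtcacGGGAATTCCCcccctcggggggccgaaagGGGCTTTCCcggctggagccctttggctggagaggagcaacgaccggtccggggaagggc
Tnfaip2 (chr12:111442411-111442710, plus strand), a TNF-induced protein, read 42.8, 41.9 and 44.9 CPM against 64.2, 73.2 and 66.8 CPM and is set apart (control difference -0.52). Nfkb2 (chr19:46304487-46304786, plus strand) fell by 0.45 on the log2 scale (adjusted p = 0.000347) and was undecided.

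Interferon response genes fell in 18 of 38 cases, against 25.5% of all genes tested, with 4 set apart and 14 undecided. None rose, and without GN_captopril replicate 2 there were 4 that rose. The summed list read 942, 793 and 1482 CPM in GN_captopril and 1229, 1020 and 1172 CPM in GN_water. GN_captopril replicate 3 thus lay above every GN_water library. Gbp3, an interferon-induced GTPase, read 17.1, 12.7 and 29.9 CPM against 92.3, 76.2 and 97.9 CPM, with 9.03 ± 0.885 CPM in Control_water and 76.1 ± 17.1 CPM in Control_captopril, and is set apart. Oasl2, an oligoadenylate synthetase-like protein, fell from 24.7, 20.6 and 22.3 to 11.6, 10.4 and 15.7 CPM and was undecided. The interferon-element-like motif gaaanngaa was in 20 of 30 (66.7%) of the list's promoters and in 2638 of 27025 (9.76%) of all promoters. It was in 9 of 15 (60%) of the list's called genes and in 998 of 11079 (9.01%) of genes tested. The pair below has the smallest adjusted p, and capitals mark the match, here on the opposite strand; in Gbp3 a pair of matches overlaps:
Gbp3: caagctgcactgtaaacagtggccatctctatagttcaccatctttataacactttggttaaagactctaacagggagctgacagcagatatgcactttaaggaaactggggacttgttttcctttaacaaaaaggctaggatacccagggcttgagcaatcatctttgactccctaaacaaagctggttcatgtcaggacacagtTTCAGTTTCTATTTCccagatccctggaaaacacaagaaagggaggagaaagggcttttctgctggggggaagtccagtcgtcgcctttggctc
Ifi44: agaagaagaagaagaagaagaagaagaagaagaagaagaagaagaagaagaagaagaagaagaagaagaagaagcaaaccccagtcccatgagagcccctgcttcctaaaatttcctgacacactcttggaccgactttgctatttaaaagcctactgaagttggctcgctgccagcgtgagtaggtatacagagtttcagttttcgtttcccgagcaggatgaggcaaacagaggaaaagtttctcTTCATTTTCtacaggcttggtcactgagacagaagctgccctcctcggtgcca
Gbp3 lies at chr3:142559794-142560093, plus strand and Ifi44, another interferon-induced gene, at chr3:151749861-151750160, minus strand. Ifi44 read 13.9, 13.6 and 11.8 CPM against 19.5, 18.3 and 19.5 CPM and is set apart (control difference -0.43). Antigen presentation genes fell in 6 of 23 cases, a share like the 25.5% of all genes and so no result about the list. The count without GN_captopril replicate 3 was 19 and without GN_captopril replicate 1 was 2. This list summed to 3429, 3622 and 5382 CPM in GN_captopril and 4949, 5100 and 5130 CPM in GN_water. Here too GN_captopril replicate 3 was the highest. H2-Eb1, an MHC class II chain, read 219.8, 246 and 319 CPM against 399.8, 387 and 375 CPM (log2 -0.57 ± 0.16), and 2 of 12 fits that each leave out 1 library did not call it (adjusted p up to 0.0544, without GN_captopril replicate 1).

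Proliferation genes fell in 19 of 29 cases and none rose, against 25.5% and 19.6% of all genes tested. Of the falls 4 were beyond the controls, 1 set apart and 14 undecided. Rrm2, the ribonucleotide reductase subunit of S phase, read 4.25, 3.13 and 3.8 CPM against 7.42, 10.4 and 6.57 CPM, with 3.72 ± 0.163 and 4.19 ± 0.415 CPM in the controls (difference -0.97 ± 0.26, adjusted p = 0.0438), and 10 of 12 fits that each leave out 1 library did not call this difference (adjusted p up to 0.0943, without GN_captopril replicate 2). Foxm1, a transcription factor of mitosis, read 1.33, 1.48 and 1.44 CPM against 2.47, 4.28 and 2.96 CPM (difference -1.24 ± 0.34, adjusted p = 0.0452), leaving out 1 library at a time ended the call of the difference in 10 of 12 fits (adjusted p up to 0.102, without Control_captopril replicate 1), and with DESeq2 its adjusted p was 0.0623. GN_water replicate 2 was the highest library for both, and without it 11 of the 29 genes fell. Without Control_water replicate 2 the difference was called lower for 1 gene of the list, against 5 with all libraries.

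**Figure D4:**
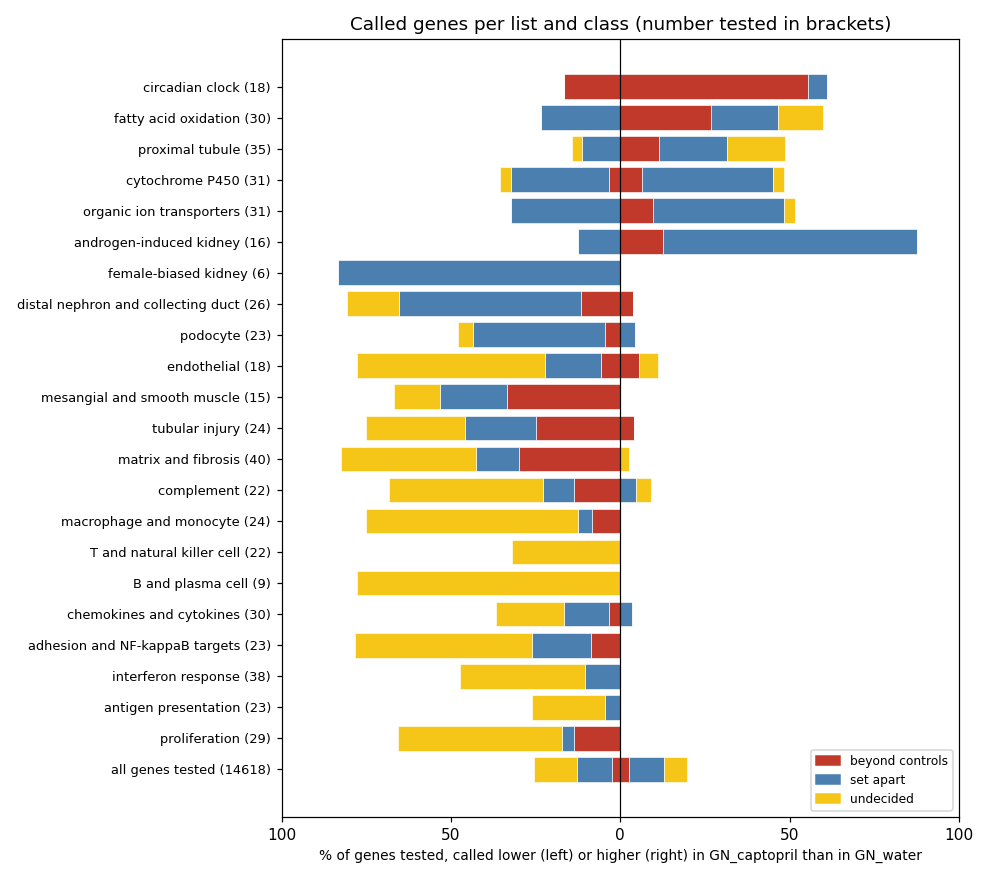
Bars give the percentage of each list's tested genes called lower (left) or higher (right) in GN_captopril than in GN_water, coloured by class, with the number tested in brackets and all genes at the bottom. Among called genes, those of the clock list are almost all beyond the controls, those of the sex-differing and drug-handling lists mostly set apart, and those of the leukocyte lists mostly undecided.

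The circadian clock list had the highest share of genes beyond the controls of the lists shown in the plot of list classes. The molecular clock is a feedback loop in which Arntl (BMAL1) with Clock or Npas2 drives Per, Cry, Nr1d and Dbp genes through E-boxes, and the products of these repress the loop in turn. Of 18 genes 11 rose and 3 fell, against 19.6% and 25.5% of all genes tested. Beyond the controls were 10 of the 11 and all 3. The rises beyond the controls were in Ciart, Dbp, Per2, Per3, Tef, Hlf, Nr1d1, Nr1d2, Cry2 and Bhlhe41 and the falls in Arntl, Npas2 and Nfil3; these names are given after their values were seen.

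Dbp (chr7:45705100-45710203, GRCm38.p6), a clock-output transcription factor, read 114, 122 and 125 CPM in GN_captopril and 10.3, 8.92 and 6.28 CPM in GN_water, 14.1 times higher (log2 3.81 ± 0.16, adjusted p = 1.77e-09). The control libraries lay between them and close together, at 39.2, 49.4 and 59.1 CPM in Control_water and 48, 42.9 and 46.6 CPM in Control_captopril, and the difference was 3.71 ± 0.21 (adjusted p = 2.69e-06). Ciart, a repressor of the loop, read 5.84, 5.27 and 9.97 CPM against 0.321, 0.288 and 0.148 CPM, the largest rise beyond the controls among genes of at least 1 CPM whose GN groups do not overlap. Per3, a period gene, read 25.2, 22.1 and 27.2 CPM against 4.49, 4.93 and 4.25 CPM, and Tef, a relative of Dbp, 350, 387 and 354 CPM against 117, 112 and 106 CPM. In each of these the GN groups did not overlap and the controls lay between or near GN_captopril.

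Arntl, the positive arm of the loop, read 4.25, 5.27 and 3.16 CPM in GN_captopril and 17.8, 22 and 21.1 CPM in GN_water, with 13.5 ± 2.53 and 12.4 ± 4.03 CPM in the controls (log2 -2.24 ± 0.24, adjusted p = 8.2e-06, difference -2.36 ± 0.32, adjusted p = 0.00165). Nfil3, which represses the targets of Dbp, read 2.99, 3.13 and 3.37 CPM against 17.4, 16.6 and 19 CPM (difference -2.00 ± 0.34, adjusted p = 0.00528). Npas2, a partner of Arntl, fell by 1.50 (adjusted p = 0.000317). The repressor Nr1d2 rose by 1.30 ± 0.07, and Per2 and Cry2 by 1.77 and 1.13. Clock, Cry1, Per1 and Bhlhe40 were not called, at log2 -0.21, -0.50, -0.70 and 0.27. Genes of the positive arm and Nfil3 were thus lower while output genes were higher in GN_captopril, with both GN groups on opposite sides of the controls for Dbp, Arntl and Nfil3. The hour of kidney collection was not tested as a factor, since no label gives it.

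The palindromic E-box cacgtg, a search added after these values were seen, was in 5 of 15 (33.3%) of the clock list's promoters and in 3 of 12 (25%) of those of its called genes. It was in 2187 of 27025 (8.09%) of all promoters and in 1255 of 11079 (11.3%) of promoters of genes tested. The called pair with the smallest adjusted p that carries it is shown, and both genes rose:
Tef: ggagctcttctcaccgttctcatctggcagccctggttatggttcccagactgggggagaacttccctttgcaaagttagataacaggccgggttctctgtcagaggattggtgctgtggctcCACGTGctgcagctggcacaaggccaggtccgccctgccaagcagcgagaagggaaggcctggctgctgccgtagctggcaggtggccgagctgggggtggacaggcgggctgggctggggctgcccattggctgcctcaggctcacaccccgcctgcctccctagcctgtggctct
Ciart: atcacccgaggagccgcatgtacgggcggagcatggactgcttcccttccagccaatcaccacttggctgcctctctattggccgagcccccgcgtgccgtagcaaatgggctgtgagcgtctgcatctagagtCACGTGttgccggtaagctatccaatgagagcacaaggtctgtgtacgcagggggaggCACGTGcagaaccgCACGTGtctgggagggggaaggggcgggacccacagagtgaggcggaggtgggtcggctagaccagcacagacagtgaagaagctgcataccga
Tef (chr15:81802423-81802722, plus strand) has 1 match in this window and Ciart (chr3:95882179-95882478, minus strand) 3. No match says only that these letters are not in this window.

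**Figure D5:**
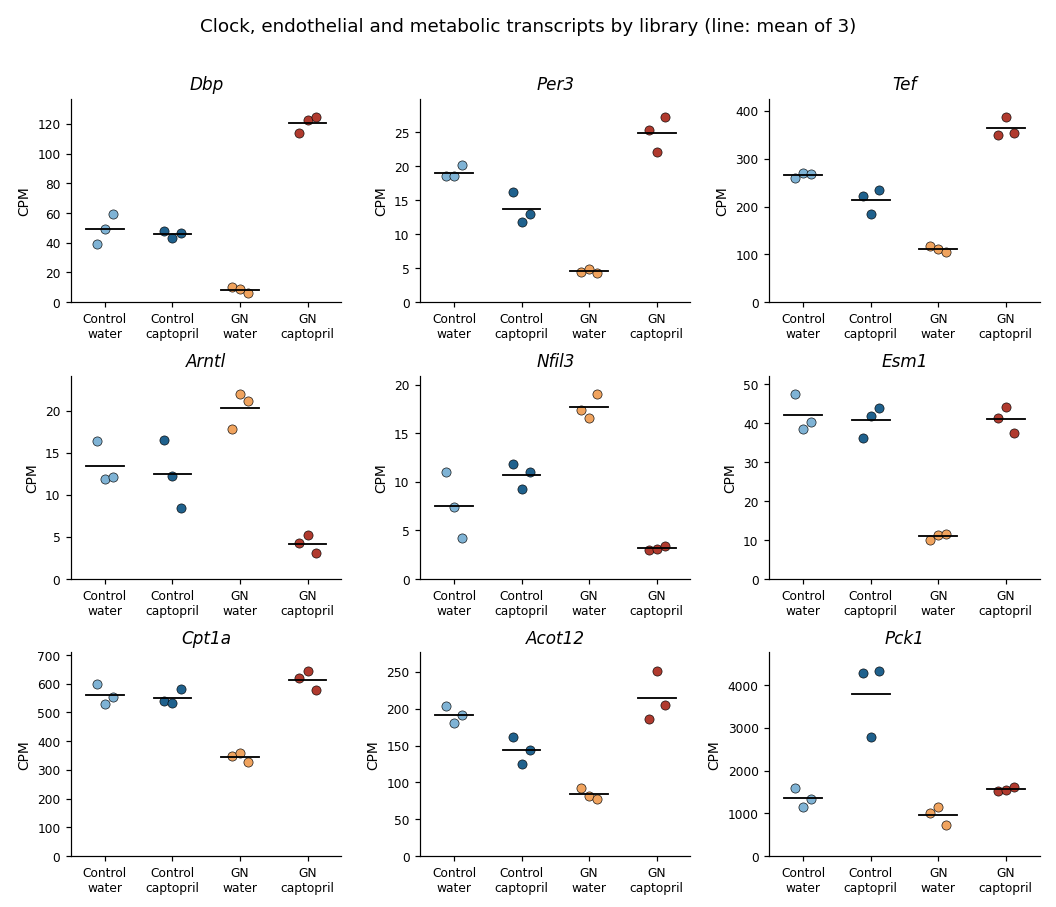
Points are the CPM of single libraries in the 4 labelled groups on linear axes from 0, and lines are means of 3. Dbp, Per3, Tef, Esm1, Cpt1a and Acot12 are lowest in GN_water, Arntl and Nfil3 are lowest in GN_captopril, and Pck1 is highest in Control_captopril.

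Fatty acid oxidation, the main fuel route of the proximal tubule, rose in part. Of 30 genes 18 rose and 7 fell, against 19.6% and 25.5% of all genes tested, so that the falls were a like share. Beyond the controls were 8 rises and no fall, and 6 rises and all 7 falls were set apart. Cpt1a, which admits long-chain fatty acids to mitochondria, read 620.5, 645 and 577 CPM against 350, 358 and 328 CPM (log2 0.83 ± 0.06, adjusted p = 4.93e-07). The controls were alike, at 561 ± 35.8 and 551 ± 27.1 CPM, and the difference was 0.80 ± 0.09 (adjusted p = 0.000554). Acot12, an acetyl-CoA thioesterase, rose from 92.9, 81.5 and 77.2 to 187, 251 and 205 CPM (difference 0.93 ± 0.16, adjusted p = 0.00528). Nuclear oxidative phosphorylation genes rose in 4 of 34 cases and fell in 5, with none beyond the controls, both below the 19.6% and 25.5% of all genes. The higher count ran from 2 (without GN_captopril replicate 2) to 7 (without GN_water replicate 1) and the lower from 3 (without GN_water replicate 1) to 10 (without Control_water replicate 1).

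Further metabolic genes were among the 10 largest rises beyond the controls. Agps, which makes ether lipids in peroxisomes, read 449, 558 and 436 CPM against 112, 97 and 120.4 CPM, Hsd17b11, a lipid droplet dehydrogenase, 374, 512 and 408 CPM against 97.1, 100.4 and 99.3 CPM, and Aacs, acetoacetyl-CoA synthetase, 259, 207 and 299 CPM against 68.1, 56.2 and 70.7 CPM. All 3 were also higher in Control_water than in Control_captopril, at 327 ± 31.4 against 132 ± 17.3 CPM for Agps, and their differences were 0.83 ± 0.17, 0.95 ± 0.14 and 0.90 ± 0.20 (adjusted p = 0.0118, 0.00243 and 0.0189). For Aacs the difference was not called in 1 of 12 fits without 1 library (adjusted p up to 0.0502, without Control_water replicate 2). Upp2, a uridine phosphorylase, read 21.4, 29.8 and 27.1 CPM against 2.29, 2.67 and 2.62 CPM and Ugt2b38, a glucuronidation enzyme with close paralogs, 1085, 1200 and 1129 CPM against 111, 118 and 109.5 CPM. Part of both changes was seen between controls, and the differences were 1.33 ± 0.23 and 0.72 ± 0.10 (adjusted p = 0.0052 and 0.00224). Aim1l, a beta/gamma crystallin domain gene, read 2.92, 5.05 and 3.73 CPM against 0.458, 0.617 and 0.445 CPM (difference 2.67 ± 0.38, adjusted p = 0.0022). Fgf18, a growth factor, read 2.39, 1.75 and 2.8 CPM against 0.504, 0.411 and 0.544 CPM (difference 2.12 ± 0.53, adjusted p = 0.0344), and 9 of 12 fits that each leave out 1 library did not call this difference (adjusted p up to 0.125, without Control_captopril replicate 1).

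Proximal tubule genes rose in 17 of 35 cases and fell in 5, against 19.6% and 25.5% of all genes tested. Beyond the controls were 4 rises, among them Slc6a19, Hnf4a and Pck1. Over the list the difference was called higher for 5 genes, for 1 without Control_water replicate 2 and for 11 without Control_water replicate 1, and without GN_captopril replicate 2 there were 2 falls. Acsm2, an acyl-CoA synthetase restricted to this segment, read 7016, 7264 and 6102 CPM against 1959, 2150 and 1955 CPM (log2 1.75 ± 0.07) and is set apart, with a control difference of 1.66. Pck1, which governs gluconeogenesis, read 1527, 1553 and 1605 CPM against 1017, 1142 and 718 CPM (log2 0.70 ± 0.18, adjusted p = 0.00653), while Control_captopril stood far higher than all others, at 4281, 2778 and 4329 CPM, so its difference of 2.19 ± 0.26 rests largely on that group. Hnf4a, a transcription factor of the segment, rose by 0.40 on the log2 scale (adjusted p = 0.00015).

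Distal nephron genes went the other way, with 21 of 26 lower and 1 higher, against 25.5% and 19.6% of all genes tested. Of the falls 14 were set apart. Foxi1, the master factor of intercalated cells, read 17.6, 21.9 and 17.4 CPM against 47, 42.5 and 49.2 CPM, with 25.4 ± 3.14 CPM in Control_water and 43.6 ± 3.9 CPM in Control_captopril. Pvalb, parvalbumin of the distal convoluted tubule, read 0.797, 0.329 and 0.359 CPM against 4.03, 6.66 and 4.89 CPM, while the control groups stood further apart, at 1.16, 0.789 and 1.23 and 33.8, 37.4 and 39.4 CPM. Beyond the controls were the falls of Aqp2, the water channel of the collecting duct (log2 -1.05), Ptger3, a prostaglandin E receptor (-0.86), and Cldn19, a tight junction claudin (-0.81), and the rise of Trpm7, a magnesium channel (0.42). The difference was called lower for 3 genes of the list, and for 5 without GN_captopril replicate 3. The difference was called higher for 3 as well, and for 5 without Control_water replicate 1.

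In the glomerulus, podocyte genes fell in 11 of 23 cases and rose in 1, against 25.5% and 19.6% of all genes tested. Of the falls 9 were set apart and 1 was beyond the controls, a share like the 9.56% of all falls. Nphs1, nephrin of the slit diaphragm, read 28.6, 29.4 and 19.7 CPM against 49.1, 55.1 and 40.7 CPM and fell by 0.89, with a control difference of -0.49 whose call was lost without Control_captopril replicate 2 (adjusted p = 0.0603). Npnt, nephronectin of the basement membrane, was the list's sole member beyond the controls, at 154, 125 and 118 CPM against 420.2, 368 and 459 CPM (difference -1.06 ± 0.20, adjusted p = 0.00932).

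Endothelial genes fell in 14 of 18 cases and rose in 2, against 25.5% and 19.6% of all genes tested. Of the falls 10 were undecided. Esm1 (chr13:113209659-113218104, GRCm38.p6), endocan, a proteoglycan secreted by endothelium under VEGF, stood out against its list. It read 41.4, 44.3 and 37.6 CPM in GN_captopril and 10.2, 11.3 and 11.7 CPM in GN_water (log2 1.90 ± 0.10, adjusted p = 1.82e-08), and the GN_captopril libraries lay at the level of the controls, 42.2 ± 4.73 and 40.7 ± 4 CPM (difference 1.84 ± 0.14, adjusted p = 4.69e-05). Plvap, the fenestral diaphragm protein, fell from 230.1, 258 and 256 to 152, 177 and 149.8 CPM (difference -0.46 ± 0.11, adjusted p = 0.0252), and leaving out 1 library at a time ended the call of the difference in 6 of 12 fits (adjusted p up to 0.0902, without GN_water replicate 3).

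Other named falls beyond the controls were in receptors. Galr2, a galanin receptor, had 1 count in each GN_captopril library and read 4.63, 4.11 and 3.26 CPM in GN_water. It was also low in Control_water, at 0.14, 0.303 and 0.322 CPM, against 1.75, 2.26 and 2.73 CPM in Control_captopril; the difference had an adjusted p of 0.0316, the difference was not called in 7 of 12 fits without 1 library (adjusted p up to 0.0885, without Control_water replicate 2), and with DESeq2 its adjusted p was 0.0593. Npy1r, a neuropeptide Y receptor of vessels, read 1.66, 1.21 and 1.87 CPM against 8.61, 5.3 and 7.12 CPM, with 1.42 ± 0.314 and 1.56 ± 0.472 CPM in the controls (difference -2.01 ± 0.40, adjusted p = 0.012). Npy1r in GN_captopril was thus at the level of both control groups.

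Markers of neighbouring tissue were uneven between libraries. Of 7 adrenal cortex genes 2 were called higher in GN_captopril, against 19.6% of all genes tested. The count was 6 without Control_captopril replicate 3 and 1 without Control_water replicate 1. Hsd3b1, a steroid dehydrogenase of the adrenal, was called beyond the controls. It read 0, 4.17 and 27.1 CPM in GN_captopril, 0, 0 and 0.0494 CPM in GN_water and 1.71, 0.0461 and 79.9 CPM in Control_captopril. The groups overlapped, the level rested on GN_captopril replicates 2 and 3 (adjusted p = 0.0451), and the call was lost in 8 of 12 fits without 1 library (adjusted p up to 0.23, without GN_captopril replicate 3). Fat genes were called higher in 2 of 10 cases, a share like the 19.6% of all genes, and in 1 without GN_captopril replicate 2. The 2 were Pck1, also a proximal tubule gene, and Car3; Adipoq and Plin1, which define fat cells, were not called, at log2 0.96 and 1.21 (adjusted p = 0.458 and 0.332). Car3, a carbonic anhydrase of fat, read 60.6, 145 and 225 CPM against 53.6, 78.1 and 9.59 CPM (adjusted p = 0.0332), and 4 of 12 fits that each leave out 1 library did not call it (adjusted p up to 0.129, without GN_captopril replicate 3). The part of adrenal or fat tissue in the genes described above was not tested. Without Control_captopril replicate 3 and GN_captopril replicate 3 together, 2762 genes rose and 3512 fell, and 305 and 359 of them were beyond the controls.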

How the data were processed

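Stranded mRNA libraries were made from total RNA of kidney cortex, per the labels' protocols. The authors deposited estimated counts per gene symbol made from their reads, of which 85.1 to 87.5% are whole numbers in each library, the usual form of expected counts. The submitters' processing notes name Bowtie2, Partek and the mouse build mm10; the role and version of each tool, and the annotation, were not given in the sources used here.

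Counts were rounded and all 12 libraries were fitted with edgeR 4.0.16 (R 4.3.3; limma 3.58.1) using TMM factors, quasi-likelihood tests on a model of 4 groups, and genes passing filterByExpr (minimum count 10, minimum total 15), 14618 of 24452 symbols. Benjamini-Hochberg adjustment ran over every gene tested, with calls at 0.05. CPM are rounded counts scaled to the TMM-adjusted library total, log2 fold changes are followed by ± SE, and CPM means by ± SD. The fit was tested on simulated data with 200 changed genes and the same spread for every gene. That setting is simpler than these data, so it does not give the error of the fit here.

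The members, the 41 gene lists and the rules were chosen with earlier results of these data known. Named genes were the 10 largest changes per direction beyond the controls and 6 set apart (at least 1 CPM, no overlap of the GN groups), up to 4 called members per list by adjusted p, and 14 fixed genes; other genes were named after their values were seen, and a few genes are not reported here. Replicate libraries differed beyond sampling noise. Alternatives were DESeq2 1.42.0, other scaling and filters, a 2-fold threshold, a fit per arm, the number as a block, and leaving out libraries. Promoters came from RefSeq (GRCm38.p6), and coordinates were matched by symbol for 172 of 173 named genes. P-values test a difference between groups against the spread between these libraries, which may be partly technical.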

Additional observations from a re-analysis of the deposited data

Results flagged for a closer look

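Read by the labels as written, captopril minus water differed between the GN arm and the control arm (edgeR interaction, adjusted over all genes) for 3444 genes in the higher and 3962 in the lower direction. On the log2 scale the interaction was 8.61 for Ren1, 1.13 for Ace, -0.72 for Agt and 0.23 for Agtr1a. It was -1.51 for Havcr1, -1.23 for Vcam1, -1.10 for Fn1 and 3.83 for Kap. The fitted value for Slco1a1 was 27.5, which rests on a group with no count and is no measure of size. In this reading the control arm compares libraries with Xist (labelled captopril) with libraries with Y-linked transcripts (labelled water), and the GN arm compares them in the opposite order, so label and marker cannot be told apart here.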

How the results depend on the processing

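Counts of genes that differ beyond the controls depend on single libraries. Leaving out 1 library at a time, the difference was called higher for 239 (without Control_water replicate 2) to 756 genes (without Control_water replicate 1) and lower for 217 (without GN_water replicate 3) to 715 genes (without Control_water replicate 1). Genes beyond the controls then numbered 188 (without Control_water replicate 2) to 541 (without Control_water replicate 1) higher and 156 (without GN_water replicate 3) to 467 (without GN_captopril replicate 3) lower, and undecided lower genes 1102 (without GN_water replicate 2) to 2171 (without Control_water replicate 2). DESeq2 called 706 genes higher in the difference, and the 2-fold threshold left 371 genes higher and 660 lower between the GN groups. The cause was not tested, other than that a 2-fold threshold removes smaller changes. The GN comparison itself ranged from 2458 to 3076 genes higher and 2540 to 3894 lower. With the replicate number as a block, 2947 genes rose and 3818 fell, the difference was called for 556 and 575, and 435 and 420 were beyond the controls; no count moved by over 1.5 times. Of 18 pairs of same-numbered libraries, 6 had a correlation of their deviations from the group means over 0.1. The lowest was -0.203 (GN_water and GN_captopril, replicate 3) and the highest 0.249 (Control_captopril and GN_captopril, replicate 3). What same-numbered libraries share besides the number was not tested. Of the 173 named genes, 161 kept the side of the threshold between the GN groups under every alternative run, 10 lost the call in at least 1 and 2 gained it. Of 54 differences 35 kept it and 19 lost it. No direction reversed among these.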
